A study of Mus musculus with 6 samples.

Results

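The mitochondrial ribosomal protein genes are the 78 genes whose symbols begin with Mrpl or Mrps followed by a number and at most one letter from a to c, out of 55487 genes in the deposited table. They were compared between 3 RNA-seq libraries of Mmrn1-high and 3 of Mmrn1-low cells, all carrying the label LT-HSC (long-term haematopoietic stem cell) and taken from bone marrow of mice of the Mmrn1-GFP type. LT-HSCs renew themselves and keep blood formation going for life, Mmrn1 encodes the platelet and endothelial protein multimerin 1, and GFP is green fluorescent protein. The sources used here give neither the age and strain of the mice nor the sorting gate, and are silent on whether each replicate was a separate mouse, so the p-values rest on library-to-library spread that may be technical.

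Mitochondria keep a small genome of their own, and the few proteins it encodes, all parts of the respiratory chain, are made by a dedicated ribosome inside the organelle. The RNA of that ribosome is transcribed in the mitochondrion, whereas every one of its proteins is encoded in the nucleus, made in the cytosol and imported. Some of these proteins have counterparts in the bacterial ribosome and others are found only in mitochondria. Adult stem cells of the blood are known for low mitochondrial respiration and for a dependence on tight control of protein synthesis.

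The members lie on 17 chromosomes, and the promoters of a few are shown as a description. Whether promoters bear on the levels of these genes was not tested. RefSeq promoter windows (build GRCm38.p6, 250 bases before to 50 bases after an annotated start) were found for 69 of the 78 members. The windows of those 69 members were searched on both strands for 6 short motifs: CCGGAAG, the core bound by ETS factors such as GABPA; GCATGCGC, a core of the site of NRF1; AAGATGGCG, bound by YY1; GGGCGGG, the GC box; CACGTG, the E-box; and TATAAA, the TATA box. Shares are of genes with a match in at least 1 of their windows. The ETS core was found for 37.7% of these members and 9.93% of all 27025 genes with windows. It was found for 20.1% of the 10232 such genes that were also tested here. The NRF1 core was found for 11.6%, 3.05% and 5.93% of the same sets of genes, and the YY1 motif for 11.6%, 1.64% and 3.59%. The GC box was found for 42.0% of the members against 50.8% of the tested genes, the E-box for 7.25% against 11.7%, and TATAAA for 7.25% against 8.81%. Such a match is a run of letters and was not tested as a binding site. The 250 bases upstream of the start are printed 5′ to 3′ for 5 members whose stretch holds at most 3 bases of annotated exon, with matches to any of the 6 motifs in capitals. Mrpl52 is the only member that was higher in Mmrn1-high cells, and Mrps23 had the second largest fall. Mrpl22, Mrps22 and Mrpl58 fell and are printed as members that show the ETS core alone or beside another motif. The 5 stretches therefore do not show how common a motif is. Mrpl41, Mrps15 and Mrps24 also hold at most 3 bases of annotated exon and fell further than Mrpl22, Mrps22 and Mrpl58. Their stretches lack the ETS core.
Mrpl52 (GRCm38.p6 chr14:54426659-54426908, plus strand): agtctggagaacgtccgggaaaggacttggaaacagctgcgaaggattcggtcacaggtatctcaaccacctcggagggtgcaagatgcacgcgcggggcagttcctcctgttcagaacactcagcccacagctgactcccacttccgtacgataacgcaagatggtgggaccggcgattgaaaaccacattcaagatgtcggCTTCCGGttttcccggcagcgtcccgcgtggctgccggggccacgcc
Mrpl22 (GRCm38.p6 chr11:58171414-58171663, plus strand): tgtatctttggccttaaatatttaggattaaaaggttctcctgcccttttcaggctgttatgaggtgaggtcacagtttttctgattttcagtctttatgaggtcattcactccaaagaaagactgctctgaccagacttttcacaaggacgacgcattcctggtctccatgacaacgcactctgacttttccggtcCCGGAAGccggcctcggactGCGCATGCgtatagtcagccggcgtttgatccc
Mrps22 (GRCm38.p6 chr9:98601680-98601929, minus strand): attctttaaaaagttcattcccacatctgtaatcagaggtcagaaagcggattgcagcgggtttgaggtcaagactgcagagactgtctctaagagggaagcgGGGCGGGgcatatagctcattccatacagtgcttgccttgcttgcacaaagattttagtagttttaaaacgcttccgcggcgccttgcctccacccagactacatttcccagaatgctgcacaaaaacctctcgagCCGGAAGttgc
Mrpl58 (GRCm38.p6 chr11:115403502-115403751, plus strand): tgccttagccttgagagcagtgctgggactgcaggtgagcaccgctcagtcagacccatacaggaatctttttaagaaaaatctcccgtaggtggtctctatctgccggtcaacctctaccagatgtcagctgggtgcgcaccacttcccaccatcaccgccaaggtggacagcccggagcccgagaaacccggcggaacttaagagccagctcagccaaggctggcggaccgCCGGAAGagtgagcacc
Mrps23 (GRCm38.p6 chr11:88204138-88204387, plus strand): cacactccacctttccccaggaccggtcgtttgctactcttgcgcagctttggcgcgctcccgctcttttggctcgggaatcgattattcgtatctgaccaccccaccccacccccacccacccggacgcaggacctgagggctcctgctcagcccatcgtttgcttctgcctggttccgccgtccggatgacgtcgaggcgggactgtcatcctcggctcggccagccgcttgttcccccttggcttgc
The Mrpl52 stretch holds the ETS core on the minus strand 47 bases before the start, and that of Mrpl58 holds it 17 bases before the start. In Mrpl22 the ETS core begins 53 bases and the NRF1 core 33 bases before the start, and in Mrps22 a GC box begins 147 bases and the ETS core 11 bases before it. None of the 6 motifs is in the stretch of Mrps23. Among the 55 members with a window that fell, 22 had the ETS core, 26 the GC box, 8 the YY1 motif, 6 the NRF1 core, 5 the E-box and 4 TATAAA. Among the other 14, which include Mrpl52, 4 had the ETS core, 3 the GC box, 2 the NRF1 core, 1 TATAAA and none the YY1 motif or the E-box, and these splits were not tested.

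The libraries held 11595104 to 30909990 counts. Mmrn1 itself was at 10.0 ± 1.33 CPM in Mmrn1-high and 5.69 ± 0.112 CPM in Mmrn1-low libraries (CPM are counts scaled to a common library total, here with TMM factors, which correct it for composition; SD, n = 3 each). Of all genes tested, 30.5% were lower and 30.7% higher in Mmrn1-high libraries, shares that bear on each count of markers here. Of 13 stem cell markers, 11 were higher in Mmrn1-high libraries, where the list summed to 471 to 493 CPM, against 161 to 198 CPM in Mmrn1-low libraries. All 12 granulocyte progenitor markers, Mpo and Elane among them, were lower in Mmrn1-high libraries, at a summed 4261 to 4346 CPM against 26262 to 27580 CPM. All 16 mitotic genes were lower as well, at 2046 to 2106 CPM in Mmrn1-high and 4288 to 4330 CPM in Mmrn1-low libraries. Macrophage markers summed to 49.1 to 52.3 CPM in Mmrn1-high and 259 to 264 CPM in Mmrn1-low libraries (11 of 12 lower), and plasma cell markers to 388 to 429 CPM in Mmrn1-high and 862 to 988 CPM in Mmrn1-low libraries (5 of 9 tested lower, 1 higher). All 10 mature neutrophil markers were higher in Mmrn1-high libraries, at a summed 4861 to 5180 CPM against 2987 to 3112 CPM in Mmrn1-low libraries. Of 9 tested B cell markers, 8 were higher, and the list summed to 51.9 to 53.6 CPM in Mmrn1-high and 35.0 to 36.6 CPM in Mmrn1-low libraries. Of 12 erythroid markers, 2 were higher and 4 lower (33.3%, near the share of all genes). Of 5 tested T and natural killer cell markers, 3 were higher and 1 was lower. That list summed to 148 to 151 CPM in Mmrn1-high and 460 to 468 CPM in Mmrn1-low libraries. Its lower marker is Nkg7, which is also among the 12 granulocyte progenitor markers. The other 4 tested markers leaned higher, so the lower sum rests on Nkg7. No marker of these lists was at 0 in all libraries. In bulk RNA, fewer cells of a type and less RNA per cell cannot be told apart, and the part of other cells or of cycling cells in the results that follow was not tested.

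Nearly every mitochondrial ribosomal protein gene was lower in Mmrn1-high cells. Of the 77 members tested, 64 fell, 1 rose (Mrpl52) and 12 did not pass the test (edgeR quasi-likelihood, Benjamini-Hochberg adjusted p under 0.05 over all 15419 genes tested). Over all genes, 30.5% were lower and 30.7% higher by the same test. On simulated counts the fit made a larger share of false calls than the threshold allows, so calls near 0.05 are less certain than the adjusted p states. The median log2 fold change of the members, Mmrn1-high minus Mmrn1-low, was −0.39, which is 1.31-fold lower, against 0.01 for all genes tested. The falls that were called ran from −0.18 to −1.06, and 39 of the 64 were under 0.5 in size. The other 25 fell by 0.5 or more, as 13.5% of all genes did. In all 64, each Mmrn1-high library was below each Mmrn1-low library, a separation that 33.7% of all genes showed in that direction and 34.1% in the other. Counting Mrpl52 and Mrps30, the groups were apart in 66 members, against 67.8% of all genes in either direction. Members had a median standard error (SE) of 0.06 and a median coefficient of variation between libraries of 4.95% in Mmrn1-high and 4.10% in Mmrn1-low cells, so that falls of this size exceeded the spread.

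Summed over the members, 2938, 2957 and 2938 CPM were found in Mmrn1-high libraries 1 to 3, against 3864, 3912 and 3828 CPM in Mmrn1-low libraries 1 to 3. The sum was thus 1.31 times as high in Mmrn1-low cells, and the groups lay far apart relative to the spread within them. As a share of all raw counts, with no scaling for composition, the members took 0.308% to 0.310% in Mmrn1-high and 0.364% to 0.371% in Mmrn1-low libraries. When counts were scaled by library size alone, the median of all genes moved to 0.15 and that of the members to −0.24, with 48 members lower and 2 higher, against 20.7% lower and 40.2% higher of all genes. Genes whose level lay in the wide range that holds most of the tested members, 16.9 to 81.2 CPM, had a median of −0.06, with 36.1% lower and 27.1% higher among 5574 genes.

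**Figure D1:**
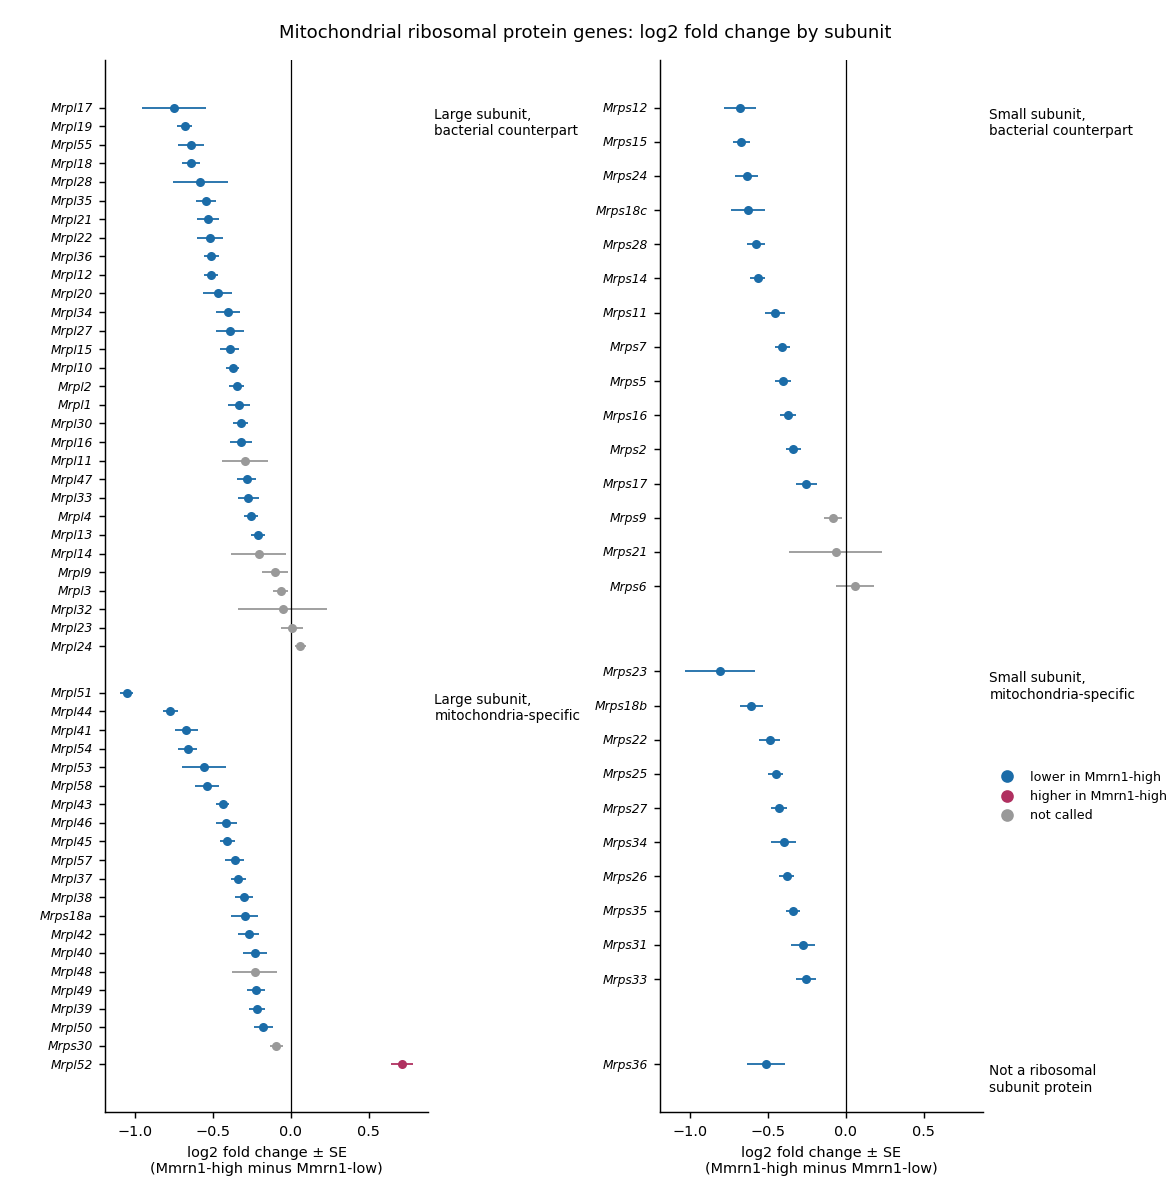
Log2 fold change (Mmrn1-high minus Mmrn1-low) of each of the 77 tested members, with bars of 1 SE, in the order of the values within each group of proteins. Blue points are called lower, the red point is called higher and grey points were not called; 73 of 77 points lie left of 0, and Mrpl52 stands alone at 0.72.

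Most genes of both subunits of the ribosome were lower. The large subunit builds the peptide bond and holds the exit tunnel: 41 of its 51 genes were lower and 1 was higher, with a median of −0.35. The small subunit reads the messenger RNA: 22 of its 25 tested genes were lower and none was higher, with a median of −0.41. The summed level of small-subunit genes, divided by that of large-subunit genes, was 0.432 to 0.441 in Mmrn1-high and 0.446 to 0.460 in Mmrn1-low libraries. Those ranges do not overlap, and the difference between the subunits was not tested.

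Proteins with a bacterial counterpart and those particular to mitochondria were alike in their medians. Of 45 tested genes with a bacterial counterpart, 35 were lower and none was higher, with a median of −0.39. Of 31 grouped as particular to mitochondria, 28 were lower and 1 was higher, with a median of −0.38. Mrps18a and Mrps18b are counted there, although they are relatives of the bacterial protein whose place Mrps18c takes. All 10 small-subunit proteins of this group were lower, by −0.26 (Mrps33) to −0.81 (Mrps23). Of the 12 members not called, 10 have a bacterial counterpart, the exceptions being Mrpl48 and Mrps30. These groupings were not tested against each other.

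Among large-subunit genes, Mrpl51, a protein found only in the mitochondrial ribosome, fell furthest (chromosome 6, 125191801 to 125196269, plus strand, GRCm38). It had 51.2, 47.4 and 48.8 CPM in Mmrn1-high libraries 1 to 3, against 101, 103 and 102 CPM in Mmrn1-low libraries 1 to 3. The groups are far apart and each is tight: the log2 fold change was −1.06 ± 0.04 SE, 2.08-fold lower (edgeR quasi-likelihood, Benjamini-Hochberg adjusted p = 3.77e-07). Mrpl44 (chromosome 1, 79776018 to 79781445, plus strand), which carries a fold related to ribonuclease III, had 49.0, 47.4 and 49.4 CPM in Mmrn1-high libraries, against 78.7, 85.9 and 84.9 CPM in Mmrn1-low libraries. Its groups did not overlap, at −0.77 ± 0.05 SE. Mrpl19 (chromosome 6, 81957851 to 81965958, minus strand), the counterpart of a bacterial protein at the interface of the subunits, stood at 60.1, 64.2 and 62.2 CPM in Mmrn1-high libraries, against 96.6, 105 and 98.3 CPM in Mmrn1-low libraries. It was 1.61-fold lower (−0.68 ± 0.05 SE), but 1962 of its exon bases are shared with Gcfc2 on the opposite strand, and the sources used here do not state the strand setting of the counting.

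The next large-subunit genes fell by much the same amount. Mrpl41, a mitochondria-specific protein, was at 17.6 ± 1.23 CPM in Mmrn1-high and 28.1 ± 0.917 CPM in Mmrn1-low cells (SD, n = 3 each), a log2 fold change of −0.67. Mrpl54, also without a bacterial counterpart, was at 29.7 ± 1.77 CPM in Mmrn1-high and 47.2 ± 0.146 CPM in Mmrn1-low cells, at −0.66. Mrpl55 averaged 11.5 ± 0.692 CPM in Mmrn1-high and 17.8 ± 0.981 CPM in Mmrn1-low cells (−0.64). Mrpl18, whose bacterial counterpart sits in the central protuberance of the large subunit, had 70.8, 82.5 and 76.4 CPM in Mmrn1-high libraries, against 120, 115 and 123 CPM in Mmrn1-low libraries (−0.64 ± 0.06 SE). All 4 had groups that do not overlap and adjusted p-values from 2.78e-05 (Mrpl54) to 2.79e-04 (Mrpl55) in the edgeR quasi-likelihood test.

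Mrpl17, the counterpart of a bacterial protein near the exit tunnel, was less even. It had 29.2, 44.0 and 30.3 CPM in Mmrn1-high libraries, against 63.4, 48.4 and 63.8 CPM in Mmrn1-low libraries. The second library of each group lay nearest the other group, and the groups came close without overlap, at −0.75 ± 0.20 SE (edgeR quasi-likelihood adjusted p = 0.0232). The call was lost when any library other than the second of each group was left out, with adjusted p-values of 0.0702 and 0.0759 without Mmrn1-high libraries 1 and 3 and of 0.0733 and 0.0774 without Mmrn1-low libraries 1 and 3.

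Mrpl12 is the counterpart of the bacterial stalk protein that recruits elongation factors, and its human form also binds the mitochondrial RNA polymerase. It lies on chromosome 11, 120484613 to 120489065, plus strand. It had 90.1, 96.2 and 99.2 CPM in Mmrn1-high libraries, against 138, 133 and 137 CPM in Mmrn1-low libraries, and was 1.43-fold lower (−0.51 ± 0.04 SE; edgeR quasi-likelihood adjusted p = 1.94e-05). Mrpl58, which releases peptides from stalled ribosomes, was at 15.1, 15.8 and 13.7 CPM in Mmrn1-high libraries, against 21.1, 21.2 and 22.6 CPM in Mmrn1-low libraries (−0.54 ± 0.08 SE). Mrpl32, whose maturation by the m-AAA protease precedes ribosome assembly in yeast and mouse, spread widely in both groups: 18.1, 19.8 and 32.7 CPM in Mmrn1-high libraries, against 22.7, 30.2 and 20.5 CPM in Mmrn1-low libraries. Its groups overlapped, and its log2 fold change of −0.05 ± 0.28 SE had no clear sign. Afg3l2, a subunit of that protease, was lower in Mmrn1-high cells, at 94.3 ± 5.88 CPM against 131 ± 2.37 CPM (−0.47), while the value of its partner Spg7 was not called.

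Mrpl52 ran against the rest. It encodes a mitochondria-specific protein of the large subunit and lies on chromosome 14, 54426909 to 54429756, plus strand. It had 34.6, 30.8 and 31.6 CPM in Mmrn1-high libraries, against 20.6, 19.3 and 19.1 CPM in Mmrn1-low libraries. All Mmrn1-high libraries were above all Mmrn1-low ones, and the gene was 1.64-fold higher (0.72 ± 0.07 SE; edgeR quasi-likelihood adjusted p = 5.26e-05). It shares no exon base with another annotated gene and no pseudogene copy of it was found. Mrpl24, the counterpart of a bacterial protein that starts the assembly of the large subunit, had the next highest value, with 101, 99.9 and 103 CPM in Mmrn1-high libraries, against 95.5, 100 and 96.4 CPM in Mmrn1-low libraries. These ranges overlap narrowly, and its log2 fold change of 0.06 ± 0.04 SE was not called (edgeR quasi-likelihood adjusted p = 0.188). At the scaling by library size alone, however, Mrpl24 was higher, at 0.21 with an adjusted p of 0.00125 in the same test. Mrpl24 shares 594 exon bases with Rrnad1 on the opposite strand.

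**Figure D2:**
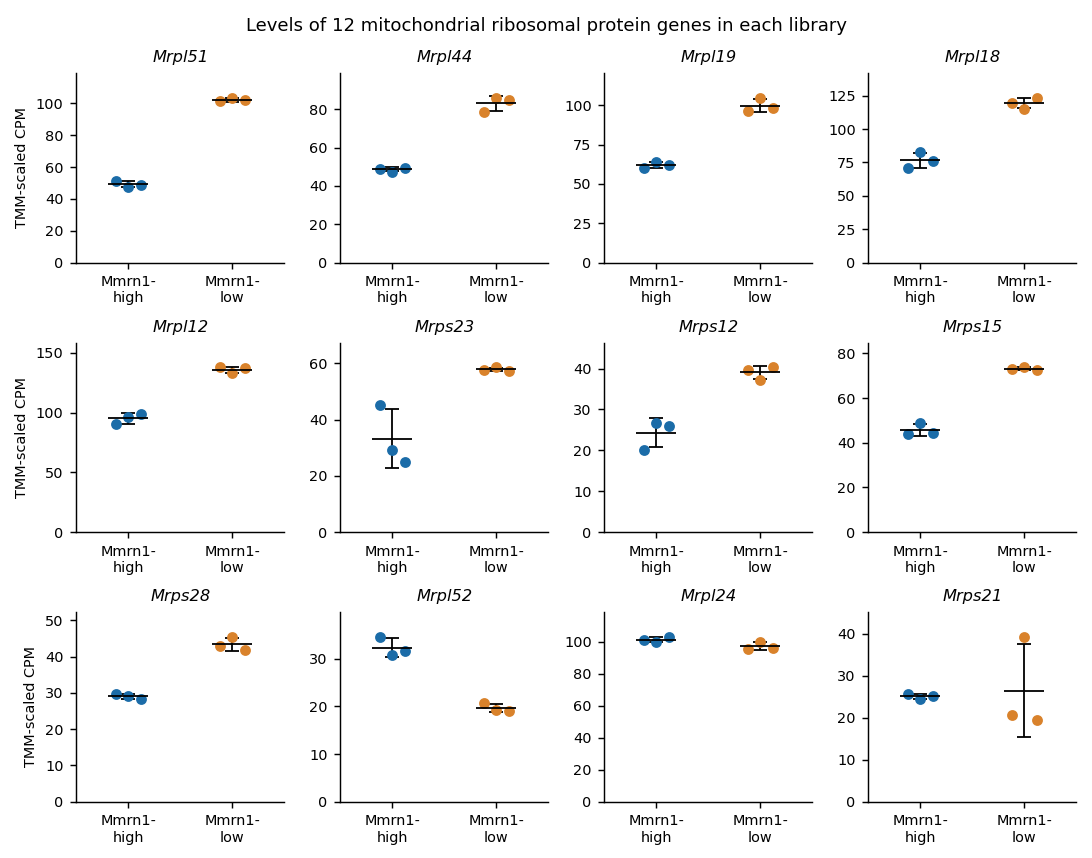
TMM-scaled level (CPM, axis from 0) of 12 members in each library, Mmrn1-high on the left in blue and Mmrn1-low on the right in orange; the line and bar are the mean and SD of 3 libraries. The groups are apart in the first 10 panels, with Mrpl52 alone higher in Mmrn1-high, while the ranges overlap in Mrpl24 and Mrps21.

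In the small subunit, Mrps12, Mrps15 and Mrps24 were among the largest falls. Mrps12, which corresponds to the bacterial decoding-centre protein that guards the accuracy of translation, lies on chromosome 7, 28739641 to 28741820, minus strand. It had 20.2, 26.6 and 26.1 CPM in Mmrn1-high libraries, against 39.7, 37.3 and 40.3 CPM in Mmrn1-low libraries (−0.68 ± 0.10 SE). Mrps15, counterpart of an early-binding bacterial protein, had 44.0, 49.0 and 44.5 CPM in Mmrn1-high libraries, against 73.2, 73.7 and 72.4 CPM in Mmrn1-low libraries (−0.67 ± 0.05 SE). Mrps24, which shares 226 exon bases with Urgcp on the same strand, had 23.7, 25.3 and 28.0 CPM in Mmrn1-high libraries, against 41.2, 40.6 and 38.1 CPM in Mmrn1-low libraries (−0.64 ± 0.07 SE). No library of these 3 genes crossed into the other group's range, and their adjusted p-values were 6.37e-04, 1.48e-05 and 1.39e-04 in the edgeR quasi-likelihood test.

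Mrps23, a protein of the small subunit with no bacterial counterpart (chromosome 11, 88204388 to 88211507, plus strand), had the second largest fall but also a wide spread. It was at 45.1, 29.4 and 25.1 CPM in Mmrn1-high libraries, against 57.8, 58.6 and 57.2 CPM in Mmrn1-low libraries. The Mmrn1-low libraries agree closely and the first Mmrn1-high library stands above the other two of its group, which gave −0.81 ± 0.22 SE (edgeR quasi-likelihood adjusted p = 0.0258). Without Mmrn1-high library 2 its adjusted p was 0.0963, without any one of the Mmrn1-low libraries it was 0.0777 to 0.0794, and under library size alone it was 0.0523, in the same test. Mrps28, one of the members with the highest authors' FPKM, had 29.7, 29.3 and 28.4 CPM in Mmrn1-high libraries, against 43.1, 45.4 and 41.9 CPM in Mmrn1-low libraries (−0.58 ± 0.06 SE). Mrps17, among the lowest by FPKM, was 1.19-fold lower (−0.25 ± 0.07 SE; edgeR quasi-likelihood adjusted p = 0.0109), but not called with library size alone (−0.11, adjusted p = 0.206) nor without Mmrn1-high library 2 (adjusted p = 0.0546).

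Mammals carry 3 relatives of a single bacterial small-subunit protein, Mrps18a, Mrps18b and Mrps18c, and these differed in size. Mrps18c, the one that takes the bacterial place, had 26.9, 23.2 and 22.9 CPM in Mmrn1-high libraries, against 36.1, 43.3 and 33.4 CPM in Mmrn1-low libraries (−0.63 ± 0.11 SE). Mrps18b, which sits elsewhere in the small subunit, had 28.4, 28.8 and 24.5 CPM in Mmrn1-high libraries, against 41.3, 41.5 and 41.6 CPM in Mmrn1-low libraries (−0.61 ± 0.07 SE). Mrps18a, which despite its name is built into the large subunit, had 26.6, 29.4 and 30.3 CPM in Mmrn1-high libraries, against 39.3, 33.0 and 34.0 CPM in Mmrn1-low libraries. Its fall of −0.30 ± 0.09 SE was called (edgeR quasi-likelihood adjusted p = 0.0160), but not under library size alone (adjusted p = 0.155), without Mmrn1-high library 1 (0.0625) or without Mmrn1-low library 1 (0.0515). Mrps18b shares 638 exon bases with Gm16279 on the opposite strand, and Mrps18c shares 250 with Gm43511 on the same strand. A pseudogene copy of Mrps18b, 99.8% identical over 417 bases, held 691 counts against 4055 of the gene. The differences among the 3 genes were not tested.

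Mrps30, also a large-subunit protein in spite of its name, hardly differed. It had 55.0, 53.9 and 54.5 CPM in Mmrn1-high libraries, against 58.1, 58.1 and 58.0 CPM in Mmrn1-low libraries. The groups were apart but close, the log2 fold change was −0.09 ± 0.04 SE and the edgeR quasi-likelihood adjusted p was 0.0795. Mrps36, first named as a ribosomal protein and now known as a part of the 2-oxoglutarate dehydrogenase complex of the citric acid cycle, was at 8.42, 7.24 and 6.23 CPM in Mmrn1-high libraries, against 11.0, 9.89 and 10.3 CPM in Mmrn1-low libraries (−0.51 ± 0.12 SE). It is the one member with no structural role in the ribosome, and it fell within the range of the others.

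The members that did not pass the test were Mrpl3, Mrpl9, Mrpl11, Mrpl14, Mrpl23, Mrpl24, Mrpl32, Mrpl48, Mrps6, Mrps9, Mrps21 and Mrps30. In 11 of them the libraries of the groups overlapped, Mrps30 being the exception. Mrps6, a counterpart of a bacterial small-subunit protein, had 16.3, 20.7 and 15.4 CPM in Mmrn1-high libraries, against 17.6, 17.8 and 15.5 CPM in Mmrn1-low libraries (0.06 ± 0.12 SE). Mrps21 had 25.6, 24.5 and 25.1 CPM in Mmrn1-high libraries, against 20.7, 39.2 and 19.4 CPM in Mmrn1-low libraries, where the second library alone was high. With an SE of 0.30, the widest among the members, its value of −0.07 says little, and without that library Mrps21 was called higher, at 0.32 ± 0.07 SE (edgeR quasi-likelihood adjusted p = 0.00846). By the same test Mrpl48 was called lower without Mmrn1-high library 1 (−0.39, adjusted p = 0.0117), Mrpl14 without Mmrn1-high library 3 (−0.41, adjusted p = 0.0268) and Mrpl11 without Mmrn1-low library 3 (−0.43, adjusted p = 0.0106). A p that misses the threshold does not show that these levels are equal in Mmrn1-high and Mmrn1-low cells.

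The members span a wide range of level per exon length, from 3.27 CPM per kilobase of merged exon for Mrpl48 to 85.3 for Mrpl34, with a median of 16.9 over the 77 tested. Mrpl34 had 73.3 ± 6.85 CPM per kilobase in Mmrn1-high and 97.3 ± 5.85 in Mmrn1-low cells (SD, n = 3 each). Mrpl12 followed with 62.1 ± 3.03 in Mmrn1-high and 88.7 ± 1.75 in Mmrn1-low cells, and Mrpl18 with 54.8 ± 4.19 and 85.5 ± 2.85 in Mmrn1-high and Mmrn1-low cells. In Mmrn1-low cells the SD ranges of Mrpl12 and Mrpl18 overlapped, and their order there was not tested. At the other end Mrpl48 had 3.02 ± 0.621 and 3.52 ± 0.293 CPM per kilobase in Mmrn1-high and Mmrn1-low cells. Its pseudogene copy Mrpl48-ps, 98.1% identical over 636 bases, held 1681 counts against 3125 of Mrpl48. Mrpl48 also shares 708 exon bases with Rab6a on the opposite strand. Whether this affects its place as the lowest was not tested. Falls were seen at all levels. They covered 18 of the 26 members with the fewest CPM per kilobase, 24 of the middle 25 and 22 of the top 26. The median log2 fold changes of these sets were −0.30, −0.36 and −0.49. A low level per kilobase need not mean few counts, because exon length differs between members. Whether the size of the fall depends on level was not tested.

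**Figure D3:**
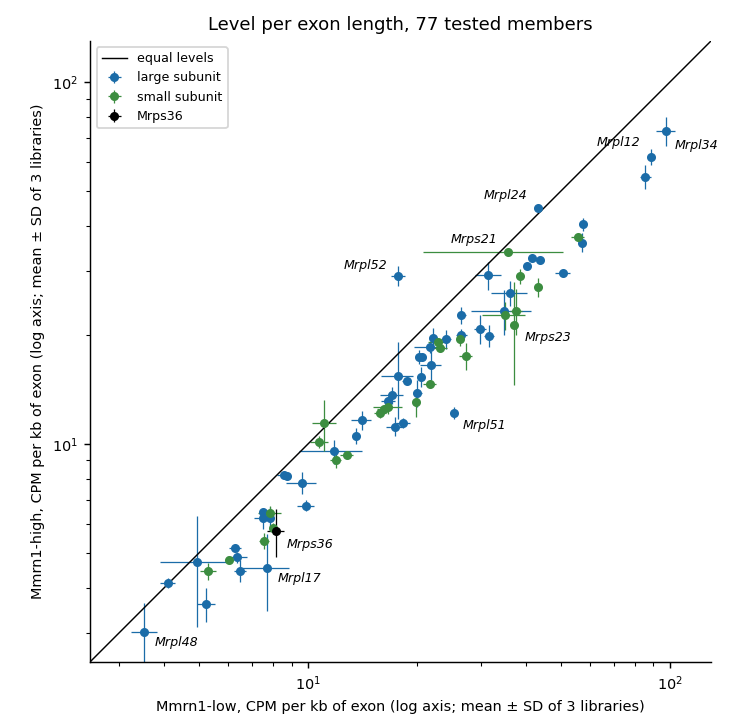
Mean level of the 77 tested members in CPM per kilobase of merged exon, Mmrn1-high on the vertical and Mmrn1-low on the horizontal axis, both on log scales, with bars of 1 SD over 3 libraries. Nearly all points lie below the line of equal levels across the whole range from 3.27 to 85.3 CPM per kilobase; Mrpl52 lies clearly above it and Mrpl24 beside it.

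Mrps10, the counterpart of a bacterial small-subunit protein, was the one member with too few counts to test. It had 6, 15 and 8 counts in Mmrn1-high libraries and 10, 6 and 19 counts in Mmrn1-low libraries, 64 in all, whereas the pseudogene AC154457.3, which matches its transcript at 97.9% identity over 573 bases, had 1113. Pseudogene copies were found for 25 members (49 copies of at least 90% identity over at least 200 bases), and the authors' counting cannot be assumed to separate such reads. When copies were summed into their members, a step added after the values had been seen, the row for Mrps10 passed the filter and was lower in Mmrn1-high cells (−0.48 ± 0.09 SE; edgeR quasi-likelihood adjusted p = 0.0022). Nearly all counts of that row are those assigned to the pseudogene, so the value is not one of Mrps10 itself and Mrps10 is not counted among the members that fell.

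For 11 members the copies held at least 10% of the member's own counts. Mrpl23, at the exit of the peptide tunnel, had 2358 counts and its copy Mrpl23-ps1, identical over 540 bases, had 2528. The gene was at 20.8, 19.5 and 20.1 CPM in Mmrn1-high libraries, against 19.0, 20.1 and 20.9 CPM in Mmrn1-low libraries, and its value near 0 (0.01 ± 0.07 SE) stayed near 0 with the copy (−0.04 ± 0.06 SE). Copies of Mrps36 held 1642 counts against 1033 of its own, and the summed value, most of whose counts are the copies', was −0.58 ± 0.08 SE. Mrpl27 had 2223 counts and its copies 720, with −0.39 alone and −0.44 with them. Adding the copies changed no call among the 77 members tested without them.

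**Figure D4:**
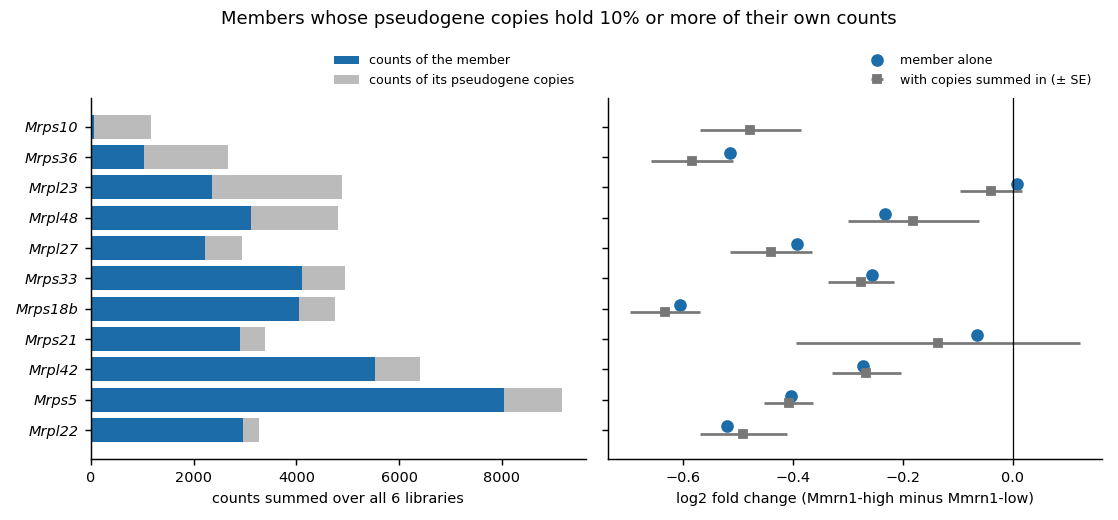
The 11 members whose pseudogene copies hold at least 10% of the member's own counts: counts summed over all 6 libraries on the left, and on the right the log2 fold change (Mmrn1-high minus Mmrn1-low) of the member alone (blue) and with its copies summed in (grey, bar of 1 SE). Mrps10 has 64 counts of its own against 1113 of its copy and so has no blue point; the summed values stay close to those of the members alone, with Mrpl23 near 0.

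Of the members, 33 share exon bases with another annotated gene, 28 of them with one on the opposite strand and 8 with one on the same strand. Mrps11 and Mrpl46, which lie head to head on chromosome 7 and share 173 exon bases, both fell, at −0.46 ± 0.06 SE and −0.42 ± 0.07 SE. Mrpl43 shares 507 bases with Twnk, the mitochondrial DNA helicase, on the opposite strand. Mrpl43 was lower in Mmrn1-high cells, at 49.3, 48.8 and 48.6 CPM against 66.8, 66.5 and 65.5 CPM in Mmrn1-low cells (−0.44 ± 0.04 SE), whereas Twnk was called higher. Of the 44 tested members with no partner, 38 were lower, and of the 37 that also have no copy of 10% or more, 33 were lower and 1 was higher.

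The 5 further proteins of the same ribosome that do not carry an Mrp symbol went the same way. Dap3, Ptcd3, Chchd1, Aurkaip1 and Gadd45gip1 were all lower in Mmrn1-high cells, with log2 fold changes of −0.16, −0.34, −0.36, −0.49 and −0.43. Aurkaip1, a small-subunit protein, was at 40.5 ± 1.24 CPM in Mmrn1-high and 57.1 ± 1.36 CPM in Mmrn1-low cells (SD, n = 3 each). The RNA core did not follow: mt-Rnr1 was at 859 ± 8.94 CPM in Mmrn1-high and 830 ± 39.3 CPM in Mmrn1-low cells and mt-Rnr2 had a log2 fold change of 0.05 ± 0.04 SE, neither called, though both were called higher under library size alone. Libraries were made from poly-A RNA, so these values are of the captured fraction of the ribosomal RNA.

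Among genes that serve the ribosome some fell and most others were not called. Of all genes 30.5% were lower and 30.7% higher, which bears on each count that follows. Under library size alone these shares were 20.7% lower and 40.2% higher. Of 17 translation factors and regulators of mitochondrial messages, 9 were lower and none was higher, with a median of −0.16. Gfm1, the elongation factor that moves the ribosome along, was at 77.1 ± 2.40 CPM in Mmrn1-high and 119 ± 1.95 CPM in Mmrn1-low cells (−0.63 ± 0.04 SE). Tufm, which brings in charged transfer RNA, was at −0.53, its recycling factor Tsfm at −0.58 and the messenger stabiliser Lrpprc at −0.55. Of 20 genes that charge mitochondrial transfer RNA, 12 were lower and none was higher (median −0.24). Of 28 tested assembly factors, 10 were lower (35.7%, near the share of all genes), Ddx28 furthest at −0.55, and 3 were higher (Nsun4, Mrm1 and Mettl17), with a median of −0.12. Of 22 genes for the upkeep of mitochondrial DNA and the making and processing of its RNA, 11 were lower, with Tbrg4 at −0.66 and Elac2 at −0.52, and 4 were higher (Tfam, Twnk, Polg2 and Hsd17b10). Under library size alone these 4 lists had 7, 4, 4 and 4 genes lower and 5, 2, 6 and 5 higher in the same order, and the median of the assembly list turned to 0.03.

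The nuclear genes of the respiratory chain, which work with the products of this ribosome, were mostly lower: 61 of 85 tested were lower and 3 were higher, with a median of −0.31, and 45 were lower and 7 higher under library size alone. Ndufb3 of complex I was 1.77-fold lower (−0.82 ± 0.04 SE) and Uqcrc1 of complex III 1.67-fold lower (−0.74 ± 0.03 SE). The messages that the mitochondrial ribosome translates did not fall: of 13, none was lower and 7 were higher, with a median of 0.07 and mt-Co3 furthest at 0.21 ± 0.03 SE, and under library size alone 11 were higher. Of 80 tested genes of cytosolic ribosomal proteins, 24 were higher (near the 30.7% of all genes) and 10 lower, with a median of 0.07. Under library size alone 47 of them were higher and 4 lower. With that scaling 40.2% of all genes were higher and 20.7% lower, which bears on the counts of each of these lists. Lists were not tested against each other.

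**Figure D5:**
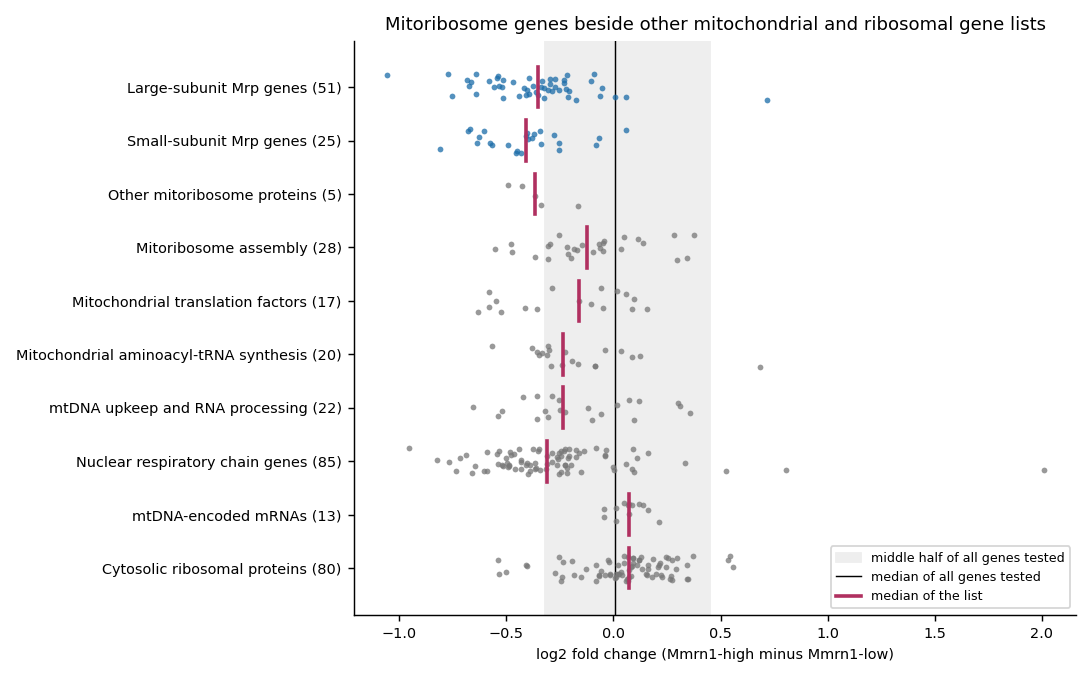
Log2 fold changes (Mmrn1-high minus Mmrn1-low) of the tested genes of 10 lists, 1 point a gene with random vertical spread, large- and small-subunit members in blue and other lists in grey; red bars are list medians, the black line is the median of all 15419 genes and the grey band their middle 50%. The medians of the members (−0.35 and −0.41) and of the nuclear respiratory chain genes (−0.31) lie left of the line, and those of the mitochondrial messages and cytosolic ribosomal proteins (both 0.07) right of it.

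Factors known to act on promoters of this kind were mixed. Nrf1 was at 33.9 ± 1.35 CPM in Mmrn1-high and 40.8 ± 1.66 CPM in Mmrn1-low cells (−0.26 ± 0.06 SE) and Gabpa at −0.26 ± 0.05 SE, both lower, though neither was called lower under library size alone, and Gabpa shares 397 exon bases with Atp5j on the opposite strand. Gabpb1, the partner of Gabpa, was higher at 0.67 ± 0.15 SE. Mycn, a regulator of growth and ribosome production, was at 30.3 ± 0.128 CPM in Mmrn1-high and 6.89 ± 0.669 CPM in Mmrn1-low cells, 4.42-fold higher (2.15 ± 0.09 SE; edgeR quasi-likelihood adjusted p = 3.73e-07). Myc was not called (0.15 ± 0.09 SE). Ppargc1a, a coactivator of mitochondrial genes, was higher at a low level, with 0.858 ± 0.183 CPM in Mmrn1-high and 0.180 ± 0.0639 CPM in Mmrn1-low cells. Of the 12 factors listed, 4 were higher (33.3%, near the share of all genes), 2 were lower and 6 were not called.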

How the data were processed

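RNA-seq of 3 Mmrn1-high and 3 Mmrn1-low mouse libraries was analysed. Stranded paired-end libraries were made from poly-A RNA, per the labels' protocols. Tools listed in the submitters' processing notes are CASAVA 1.8, HISAT2, StringTie and edgeR, on the build GRCm38, without their roles or order. The table deposited by the authors held raw counts per gene and FPKM values. The FPKM lengths came within 1% of the summed distinct exons of all transcripts for 97.9% of 13967 genes, so FPKM understates genes with many isoforms, and levels here are TMM-scaled CPM, per kilobase of merged exon (GENCODE M21) between genes. Genes were tested on counts with edgeR 4.0.16 in R 4.3.3 (quasi-likelihood F test, robust, TMM, filterByExpr, group as the only term), with calls at 0.05 after Benjamini-Hochberg adjustment over 15419 genes. SE is the absolute log2 fold change over the square root of F. A count of 3 is 0.0971 to 0.259 CPM. Promoter windows were matched by symbol.

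The members, the gene lists and the rule for named genes were chosen with earlier results of these data known. Named were the 12 members with the largest falls among those called with groups apart, up to 8 called the other way, the 3 highest and 3 lowest by FPKM, untested ones, the 4 nearest 0 and 9 taken for their role, and up to 4 of each pathway list by p. Other members are named where a count or a group of proteins calls for it, after their values had been seen. Copies were found with BLAST+ 2.17.0. Alternatives were other scalings, filters, DESeq2 1.42.0, limma 3.58.1 on counts (voom) and on FPKM, the replicate number as a block, other thresholds, leaving out each library and, added after the values were seen, summed copies. The fitting was tested on simulated data, where the share of false calls was above the 0.05 threshold. Figures were made with Python 3.11.15.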

Additional observations from a re-analysis of the deposited data

How the results depend on the processing

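The count of 64 lower members was 48 to 65 in every alternative with all members and the 0.05 threshold on counts, the 65 being with copies summed, where the added row is mostly the pseudogene of Mrps10. It was 50 on FPKM and 40 on FPKM with no filter, and the cause of these counts was not tested. It was 25 with a log2 fold change of at least 0.5 required, a stricter rule, and 38 among the 44 tested members that share no exon base, a smaller set. The count of 1 higher member became 2, Mrpl24 joining Mrpl52, with library size alone, a filter of 5 CPM in 3 libraries and each of the 3 FPKM settings, and also without Mmrn1-low replicate 2, where Mrps21 joined it. Leaving out each library gave 58 to 62 lower members, 1 to 2 higher and a median of −0.39 to −0.35. The median of −0.39 was −0.24 with library size alone, −0.37 with no filter, −0.34 with the filter of 5 CPM, −0.38 with voom, −0.22 on log2(FPKM + 1), −0.24 on log2(FPKM + 0.1), −0.22 on FPKM with no filter and −0.35 for members that share no exon base, and the cause of these shifts was not tested.

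The correlations of same-numbered deviations were 0.04, −0.08 and 0.03, and those of other pairs ran from −0.09 to 0.07. With so few libraries this cannot settle whether same-numbered libraries share a mouse or sort. With the replicate number as a block, 62 members were lower and 1 higher, and Mrpl17 was not called (−0.77, adjusted p = 0.0913). Some values near 0 changed sign. Mrpl23 was at −0.0085 with voom, −0.0393 with copies summed and −0.0207 to 0.0519 when each library was left out. Mrpl32 was at 0.0943 with library size alone, 0.0494 on log2(FPKM + 1) with or without the filter, 0.0575 on log2(FPKM + 0.1) and −0.3602 to 0.1203 when each library was left out. Mrps30 was at 0.0555 with library size alone, 0.0490 on log2(FPKM + 1) with or without the filter and 0.0546 on log2(FPKM + 0.1). Mrps6 was at −0.0747 to 0.1415 when each library was left out. Across 504 values of named members, 454 kept direction and call, 27 lost the call, 6 gained it and 17 changed sign. The depth limits Mrps10, which had 64 counts.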
